A study of Mus musculus and Homo sapiens with 30 samples.

Results

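The proteasome genes of 2 mouse mammary cell lines were followed after exposure to the secretome of lean or obese inguinal adipocytes. Members were all genes of the mouse count table whose symbol is Psma, Psmb, Psmc, Psmd, Psme, Psmf or Psmg followed by a number, without Psmb8 and Psmb9, with a mean of at least 1 CPM (a gene's count as a share of the total count of its library, scaled to counts per 1000000) in at least 1 line. The pattern matched 48 symbols. Psmb8 and Psmb9 were left out by the rule, Psma8 was at 0 in every library, and Psmb11 averaged 0.02 CPM in E0771, which left 44 members among 56980 gene IDs. The lowest members lay well above the minimum, with Psmg4 at 9.41 CPM in E0771 and 12.4 CPM in NMuMG, and Psmb10 at 14.8 and 16.6 CPM. All 44 passed the low-count filter in both lines.

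E0771 is a line from a mouse mammary adenocarcinoma, and NMuMG is an epithelial line from normal mouse mammary gland, although the labels list both as breast cancer. Each line was grown for 36 hours and then kept for 16 hours in 1 of 3 media: standard growth medium as control, or a mix of 50% standard medium and 50% secretome of lean or of obese inguinal adipocytes. The control held no secretome of any kind. E0771 grew in DMEM with 10% FBS. For the medium of NMuMG the labels also state insulin (10 mcg/ml) and glucose (4.5 g/L), in control and treated wells alike. For E0771 they state neither amount, so line and base medium cannot be told apart. The labels do not say what species or how many animals the adipocytes came from. There were 3 libraries in each of 6 groups, and nothing says that they came from separate cultures, so the p-values measure the spread between these libraries, which may be technical.

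The proteasome is the main protease of the cytosol and nucleus for proteins tagged with ubiquitin. Its 20S core is a stack of rings: the alpha subunits (Psma) form the outer rings and gate the entry, and the beta subunits (Psmb) form the inner rings, of which Psmb5, Psmb6 and Psmb7 carry the catalytic sites. The 19S cap binds ubiquitin chains, removes them and unfolds the substrate with a ring of ATPases (Psmc), while the other cap subunits (Psmd) are receptors, scaffold and the deubiquitinase Psmd14. Other caps (Psme) open the core without ATP, and Psmf1 is known as an inhibitor of the core. Interferon signalling exchanges the catalytic beta subunits for Psmb8, Psmb9 and Psmb10 and raises Psme1 and Psme2, while the transcription factor Nfe2l1 raises most of the standard subunits when proteasome activity falls.

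Nfe2l1 and Nfe2l2 are known to act through antioxidant response elements, so the promoters were searched for the letters of its core, TGACNNNGC, on both strands, from 250 bases before to 50 bases after the gene start. RefSeq promoters (GRCm38.p6) were found for 37 of the 44 members. The core letters were present in 6 of these 37 (16.2%), against 14.0% of 27025 genes with a promoter in the same table. The looser form TGANNNNGC, which includes every match of the stricter one, was in 20 of 37 (54.1%) against 45.1% of genes, and the letters CCAAT were in 12 of 37 (32.4%) against 41.1%. The 6 promoters with the strict form are shown because they include members with a large, a small and no called response in E0771. Capitals mark the matched letters, each run is read 5′ to 3′ on the gene's strand, and the reverse complement was matched in Psmc6, Psmd12 and Psme4.
Psmb5 (chr14:54618024-54618053, minus strand): acgtgaagttgTGACGTCGCggcgttgcca
Psmb6 (chr11:70525337-70525366, plus strand): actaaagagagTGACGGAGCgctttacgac
Psmc6 (chr14:45329586-45329615, plus strand): gccagccagtaGCTAAGTCAggcattgctc
Psmd12 (chr11:107479278-107479307, plus strand): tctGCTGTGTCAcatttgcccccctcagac
Psmd9 (chr5:123228148-123228177, plus strand): tatctagccggTGACCCCGCccacttccaa
Psme4 (chr11:30771755-30771784, plus strand): cggcgctgcggctGCAGCGTCAccagaaga

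The last search, for the core of ETS sites (CCGGAAG, both strands), found 14 of 37 members (37.8%) against 9.93% of genes. Neither base composition nor expression was matched between members and genes in these searches. Members had to reach 1 CPM in a line, while the genes were all those with a promoter, expressed or not. Of the 30 members with a promoter that rose with lean secretome in E0771, 11 held the ETS letters, and of the 7 others 3 did. The ETS matches of the 4 members with the largest rise in E0771 that held one are shown, with the match in capitals and the reverse complement matched in Psmd12 and Psmd11. A match of letters is a description of the window and not a bound site.
Psme4 (chr11:30771710-30771739, plus strand): cgtggccccgccCCGGAAGtgacttgaggc
Psmd12 (chr11:107479499-107479528, plus strand): atgagcgggcgaCTTCCGGtgcgagtgacg
Psmc6 (chr14:45329712-45329741, plus strand): gaggcgggccagCCGGAAGgggcggagcca
Psmd11 (chr11:80428592-80428621, plus strand): gcgagggcgggtCTTCCGGgtgtgtgtttc

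Library totals ran from 22929035 to 31094119 counts in E0771 and from 23966897 to 29686456 in NMuMG, and every member had at least 198 counts in every library. E0771 was checked against epithelial markers and had 1 of 8 at a mean of 1 CPM or more in each medium (Krt8), with 4 of 8 at 0 in the control libraries, whereas NMuMG had 6 or 7 of 8. Adipocyte markers summed to at most 2.19 CPM in any library, and immune markers to at most 5.77 CPM. The adipocyte sum was 2.03 to 2.19 CPM with lean against 0.37 to 1.08 CPM with obese secretome in NMuMG, mostly Cidec, and overlapped in E0771. The immune sum was 5.40 to 5.77 against 4.64 to 5.35 CPM in E0771, and overlapped in NMuMG. Mesenchymal and epithelial marker sums moved with the medium in both lines. The endothelial sum was 2.11 to 2.99 CPM with lean against 3.26 to 5.62 CPM with obese secretome in E0771, and overlapped in NMuMG. Nearly all of it in E0771 was Pecam1 (mean 2.41 against 4.42 CPM). The means of Cdh5 (0.14 against 0.10 CPM) and Kdr (0.03 against 0 CPM) were near the floor and not lower with lean secretome. Mesenchymal markers summed to 1971 to 2193 CPM with lean against 2882 to 3009 CPM with obese secretome in E0771, and to 2985 to 3110 against 3506 to 3698 CPM in NMuMG. Most of this sum in E0771 was Vim (mean 2024 against 2875 CPM), with Fn1 at 0. The list did not move as a set in NMuMG. There Fn1 (mean 954 against 1371 CPM) and Vim (1774 against 1906 CPM) were lower with lean secretome. Cdh2 was higher without overlap, at 265 to 282 against 239 to 260 CPM. Epithelial markers summed to 243 to 247 against 229 to 241 CPM in E0771, and to 7907 to 8186 against 6832 to 7124 CPM in NMuMG. The part of these markers in the results of either line was not tested. In such bulk libraries fewer cells of a type and less RNA per cell cannot be told apart.

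Per length of transcript, the 7 chaperones of core and cap were among the lowest members, at rank 35 or lower of 44 in both lines. The highest level was that of Psma7, an alpha ring subunit, at 248 CPM per kb in E0771 and 227 CPM per kb in NMuMG. Psmb7 (219 CPM per kb), Psmb4 (212), Psmd2 (210) and Psmb3 (210) followed in E0771. The lowest levels were those of the immunoproteasome subunit Psmb10 (11.3 CPM per kb in E0771), the cap chaperone Psmd10 (12.8) and the core chaperone Psmg4 (17.0). The largest shift of rank between the lines was in the catalytic subunit Psmb5, at rank 18 of 44 in E0771 (144 CPM per kb) and rank 32 in NMuMG (44.7 CPM per kb), together with Psmd13, at rank 33 (49.6 CPM per kb) and rank 23 (86.9 CPM per kb), and Psma4, at ranks 17 and 5.

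**Figure D1:**
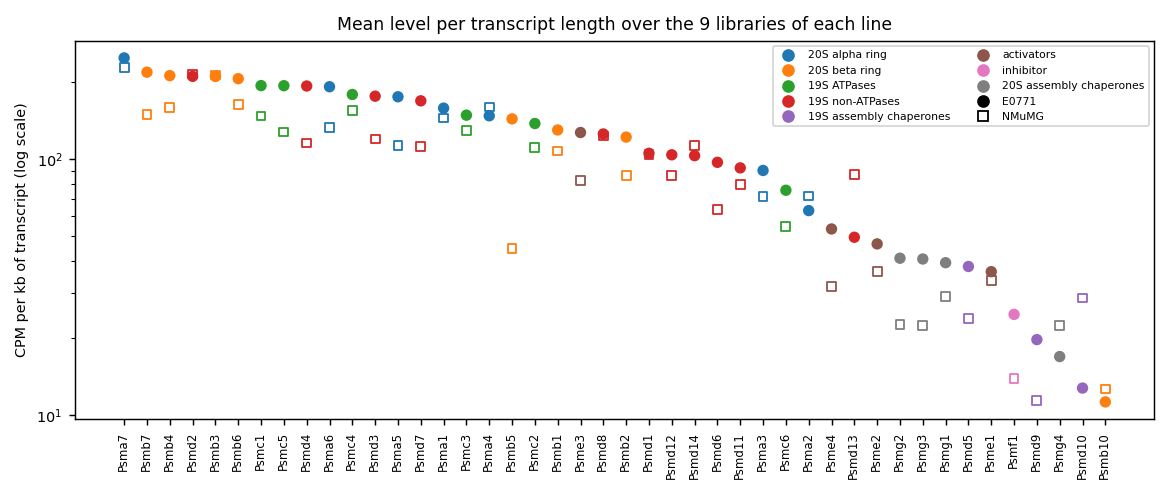
Mean level per transcript length of each member over the 9 libraries of a line (y axis, CPM per kb, log scale), ordered by the level in E0771, with filled circles for E0771, open squares for NMuMG and colours for the classes. Psma7 is highest in both lines, and Psmb5 lies at 144 CPM per kb in E0771 against 44.7 in NMuMG.

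In E0771, the transcripts of nearly the whole 26S particle were higher with lean than with obese secretome. Of 44 members, 35 rose and 2 fell (edgeR's quasi-likelihood test, Benjamini-Hochberg adjusted p under 0.05), while 25.8% of the 13813 genes tested rose and 26.9% fell. The median log2 fold change was 0.26 over the members and 0.00 over all genes tested. The lean and obese libraries did not overlap for 36 members that were higher and 2 that were lower, against 60.3% of genes in either direction. Together the members took 0.937% to 0.962% of all counts in the lean libraries, 0.768% to 0.790% in the obese libraries and 0.738% to 0.772% in the controls. The size of each change was modest: only 4 members passed a log2 fold change of 0.5, namely Psme4, Psmd12 and Psmc6 upwards and Psme1 downwards.

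**Figure D2:**
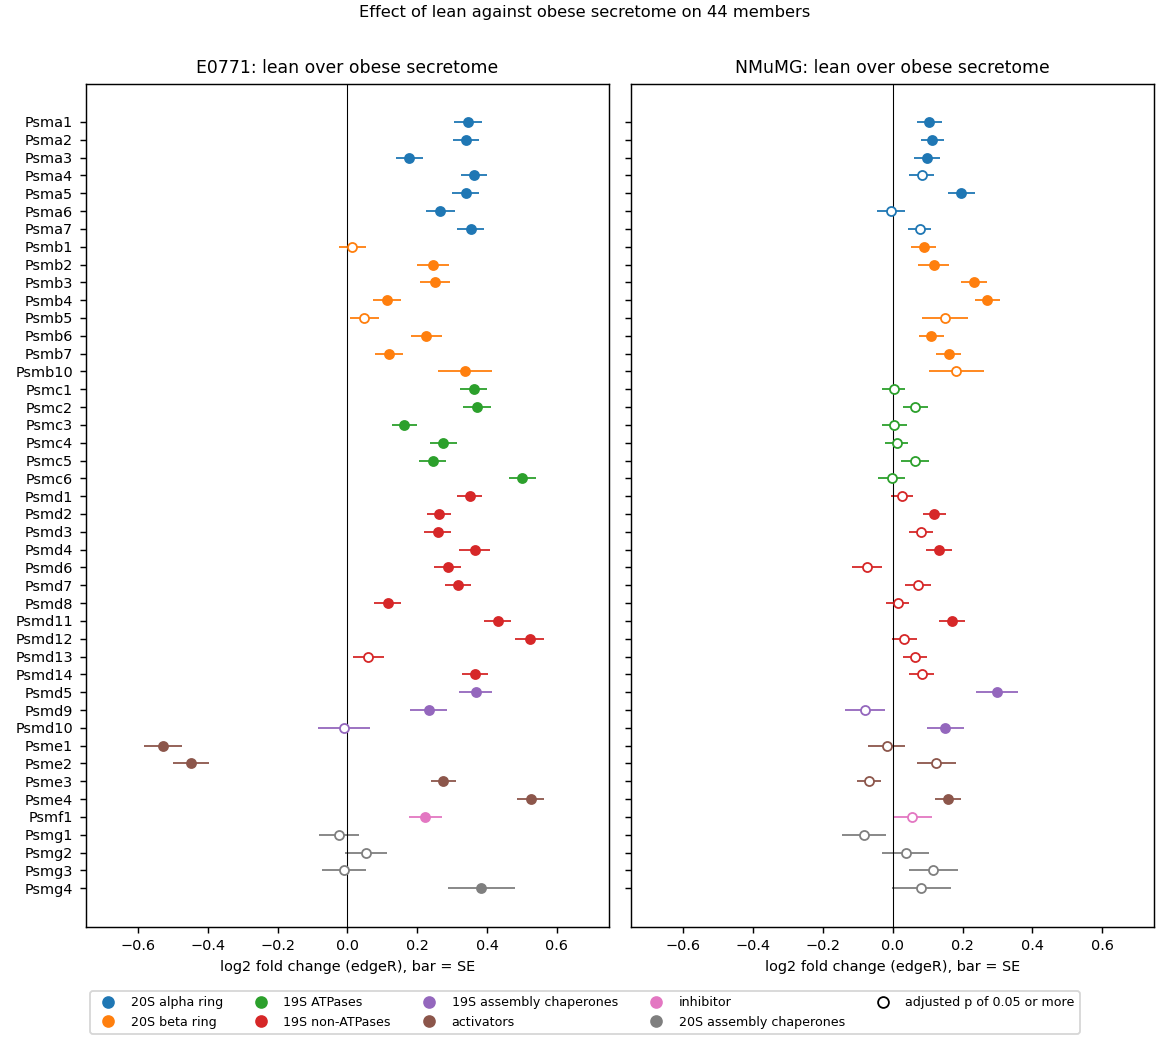
Log2 fold change of lean over obese secretome (x axis) for each of the 44 members (y axis) in E0771 and NMuMG, with SE bars, colours for the classes and open circles where the adjusted p was 0.05 or more. In E0771 all 7 alpha subunits and all 6 ATPases rose and Psme1 and Psme2 fell, and in NMuMG no ATPase was called.

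All 7 alpha ring subunits rose in E0771, with a median log2 fold change of 0.34. Psma4 was at 202, 202 and 208 CPM with lean, 158, 158 and 159 CPM with obese secretome and 149, 155 and 158 CPM in control. The lean libraries all lay above the 6 others, and the fitted log2 fold change over obese was 0.36 (SE 0.04, adjusted p = 2.21e-08). Psma3 rose least of the ring, by 0.18. The evenness of the ring is seen in the other 6, whose log2 fold changes lay between 0.27 (Psma6) and 0.36 (Psma4).

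The beta ring responded less and less evenly. Of its 8 members 6 rose, with a median log2 fold change of 0.17. Among the catalytic subunits, Psmb6 rose by 0.23 and Psmb7 by 0.12, and Psmb5 was at 130, 136 and 137 CPM with lean and 127, 129 and 132 CPM with obese secretome, which overlap (log2 fold change 0.05, SE 0.04, adjusted p = 0.35). Psmb1, a structural subunit, was also not called, at 232 ± 2.24 CPM (SD, n = 3) with lean and 229 ± 4.42 CPM with obese secretome. Psmb4, a structural subunit, was at 255, 268 and 273 CPM with lean and 246, 246 and 242 CPM with obese secretome (log2 0.11, SE 0.04, adjusted p = 0.017). That call was lost without lean replicate 2, obese replicate 2 or obese replicate 3 (highest adjusted p = 0.074). Exons of Psmb7 overlap Nek6 on the opposite strand, which was counted at 118 CPM, and as the strand setting of the counting is not given in the sources used here, reads of the pair may not be separated.

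Psmb10, the interferon-induced counterpart of Psmb7, rose although it belongs to the immunoproteasome. It was at 18.1, 17.4 and 18.7 CPM with lean, 14.4, 13.3 and 15.0 CPM with obese secretome and 12.6, 11.5 and 12.2 CPM in control. The 3 media were separated without overlap in E0771, with lean highest. The log2 fold change was 0.34 over obese (SE 0.08, adjusted p = 0.00074) and 0.57 over control (SE 0.08, adjusted p = 1.36e-06), while obese over control was 0.23 (SE 0.08, adjusted p = 0.15).

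The median log2 fold change was larger in the 19S cap (0.32) than in the 20S core (0.25). All 6 ATPases rose (median log2 fold change 0.32), as did 10 of 11 non-ATPase subunits (median 0.32). Psmc6, an ATPase of the unfolding ring, was at 217, 204 and 213 CPM with lean, 151, 144 and 151 CPM with obese secretome and 143, 148 and 149 CPM in control. Every lean library lay above every other one, a 1.42-fold difference of lean from obese (log2 0.50, SE 0.04, adjusted p = 2.43e-10). Psmd12, a scaffold subunit of the lid, was at 257, 245 and 250 CPM with lean and 171, 171 and 179 CPM with obese secretome, a 1.44-fold difference (log2 0.52, SE 0.04, adjusted p = 2.05e-10). Psmd11, its neighbour in the lid, rose by 0.43 on the log2 scale, from 192, 179 and 189 CPM to 248, 253 and 257 CPM. The deubiquitinase Psmd14 and the ubiquitin receptor Psmd4 rose alike, by 0.36 each. The exception was Psmd13, a lid subunit, at 103, 107 and 100 CPM with lean and 99.7, 99.1 and 97.0 CPM with obese secretome (log2 0.06, SE 0.04, adjusted p = 0.26). Its exons overlap Sirt3 on the opposite strand, counted at 8.26 CPM, and those of the ATPase Psmc3, which rose by 0.16, overlap Slc39a13, counted at 44.9 CPM.

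Summed over subunits, cap and core changed by unequal amounts. Among the members, the 17 cap subunits summed to 1.63, 1.62 and 1.64 times the 15 core subunits in the lean E0771 libraries. In the obese ones the ratio was 1.53, 1.55 and 1.54. The control libraries lay at 1.54, 1.52 and 1.51, so lean stood above both. Within the core, the alpha ring stood at a mean of 1.28 times its control sum with lean secretome and the beta ring at 1.12 times. The ATPases (1.28 times) and the other cap subunits (1.29 times) were close to the alpha ring, so the unequal change lay in the beta ring.

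**Figure D3:**
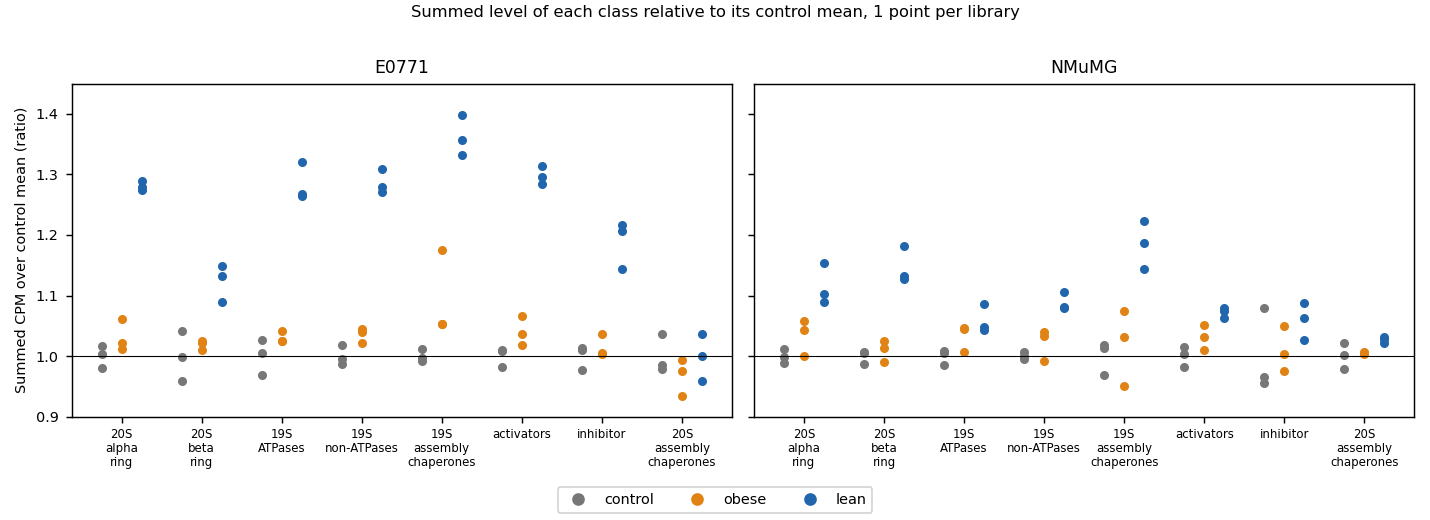
Summed CPM of each class divided by its mean in the 3 control libraries of the same line (y axis), 1 point per library, for control, obese and lean media in E0771 and NMuMG. In E0771 the alpha ring (1.27 to 1.29), the ATPases (1.27 to 1.32) and the non-ATPases (1.27 to 1.31) stand above the beta ring (1.09 to 1.15) with lean secretome. The summed chaperones of the cap are highest (1.33 to 1.40), and most of that sum is Psmd5 (mean 204 of 280 CPM with lean). In NMuMG the chaperones of the cap (1.14 to 1.22), the beta ring (1.13 to 1.18) and the alpha ring (1.09 to 1.15) overlap.

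The 4 activators split into opposite directions in E0771. Psme1 and Psme2, the interferon-inducible subunits of the 11S ring that serves antigen processing, fell. Psme1 was at 32.7, 31.3 and 30.5 CPM with lean, 44.4, 45.0 and 46.4 CPM with obese secretome and 44.1, 45.3 and 44.3 CPM in control (log2 over obese -0.53, SE 0.05, adjusted p = 1.83e-08). Psme2 was at 35.3, 37.3 and 36.8 CPM with lean and 49.6, 50.3 and 48.6 CPM with obese secretome (log2 -0.45, SE 0.05, adjusted p = 1.22e-07). For both genes every lean library lay below every obese and control library. Psme2b, a near-identical copy of Psme2, was counted at 2.67 CPM in E0771 and could take a share of its reads, and exons of Psme1 overlap Emc9 on the opposite strand, counted at 3.44 CPM.

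The other 2 activators rose. Psme3, which forms a nuclear 11S ring of its own, was at 386, 390 and 386 CPM with lean, 322, 311 and 323 CPM with obese secretome and 304, 306 and 317 CPM in control (log2 over obese 0.27, SE 0.04, adjusted p = 4.98e-07). Psme4, a single-chain activator, was at 443, 451 and 436 CPM with lean, 322, 298 and 300 CPM with obese secretome and 282, 298 and 290 CPM in control. This was the largest rise of any member, 1.44-fold over obese (log2 0.52, SE 0.04, adjusted p = 8.89e-11), and the lean libraries stood apart from all others. The inhibitor Psmf1 rose as well, from 60.5, 62.4 and 60.4 CPM to 73.3, 68.9 and 72.7 CPM (log2 0.22, SE 0.05, adjusted p = 0.00033).

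Chaperones that build the particle did not move as a group. Of the 3 that assemble the cap, Psmd5 rose by 0.37 and Psmd9 by 0.23, and Psmd10 was not called (log2 -0.01, SE 0.07). Of the 4 that assemble the core, only Psmg4 was called, from 9.30, 7.79 and 8.68 CPM to 11.0, 11.6 and 11.2 CPM (log2 0.38, SE 0.10, adjusted p = 0.0016). Psmg1 was at 40.5 ± 1.80 CPM (SD, n = 3) with lean and 41.0 ± 1.79 CPM with obese secretome, and Psmg2 and Psmg3 were also not called. The spread of these low genes between libraries was wider than that of the ring subunits, with SE of 0.06 to 0.10, against 0.04 for each alpha subunit.

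**Figure D4:**
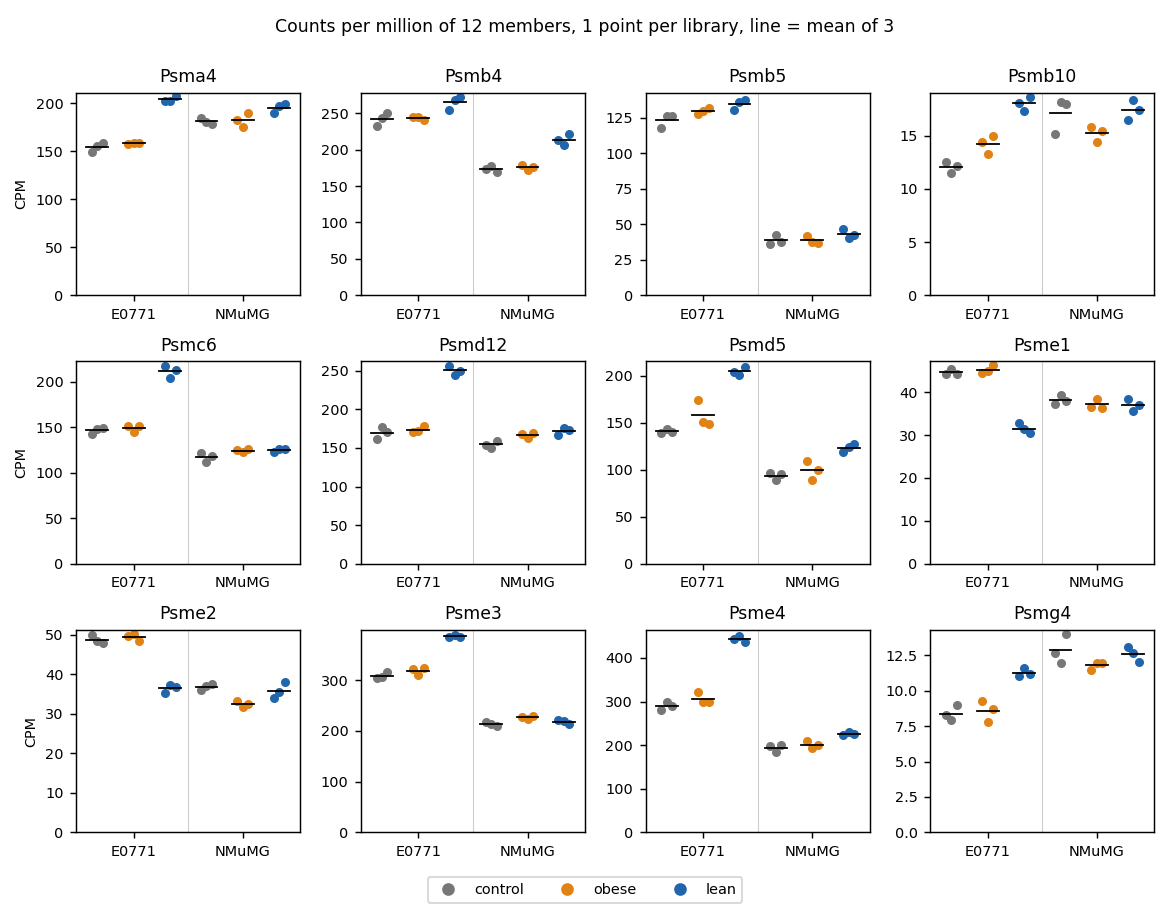
CPM (y axis, from 0) of 12 members in each library of E0771 and NMuMG in control, obese and lean media, with a line at the mean of 3 libraries. In E0771 the lean libraries lie above the others for Psmc6, Psmd12, Psme3 and Psme4 and below them for Psme1 and Psme2, and in NMuMG lean and obese values overlap for Psmc6, Psmd12 and Psme1.

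Lean secretome was also compared with control medium in E0771, with the lean libraries shared with the comparison above. Here 37 members rose and 2 fell, where 27.3% of genes rose and 29.0% fell, and the median log2 fold change was 0.31. Mitochondrial genes took 1.32% to 1.46% of counts in the lean and 1.599% to 2.06% in the control libraries, without overlap, and their part in the result was not tested. The largest rises over control were in Psme4 (0.60), Psmb10 (0.57), Psmd12 (0.55), Psmd5 (0.53) and Psmc6 (0.52), and the falls were in Psme1 (-0.51) and Psme2 (-0.43). All 17 cap subunits among the members were called higher, Psmd13 included at 0.13. The Psmd13 call was lost without control replicate 1, control replicate 2 or lean replicate 2 (highest adjusted p = 0.087). Sem1, a cap subunit that is not a member, was lower, at 112, 113 and 112 CPM with lean and 130, 132 and 136 CPM in control. The call of Psmb4 over control was lost without control replicate 1 (adjusted p = 0.075).

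The log2 fold changes of the members with obese secretome over control were small in E0771. By edgeR's quasi-likelihood test 0 of 44 were called, against 2.61% of genes, so the count is near that share. The log2 fold change was positive for 37 of 44 members and for 6893 of the 13813 genes tested. Libraries did not overlap for 10 members higher and 0 lower, against 1624 genes higher and 1339 lower. At an unadjusted p under 0.05 there were 4 members, all higher, and the share of all genes at that threshold was not counted. DESeq2 called 1 member, Psmd5, among 466 genes called in either direction. The median log2 fold change was 0.03, and the widest values were 0.23 for Psmb10 and -0.07. Psmd5, a cap chaperone, was at 173, 151 and 149 CPM with obese secretome and 139, 143 and 140 CPM in control, which do not overlap (log2 0.16, SE 0.05, adjusted p = 0.079). Without obese replicate 2 the adjusted p of Psmd5 was 0.042.

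In NMuMG the rise with lean over obese secretome was smaller and lay mostly in the core. Of 44 members 16 rose, where 17.6% of the 15014 genes tested rose and 17.4% fell, and the median log2 fold change was 0.08. None was called lower, and 1 was lower at an unadjusted p under 0.05 (Psme3), a threshold at which all genes were not counted. DESeq2 called 12 members higher and 0 lower, among 4413 genes called in either direction. Without NMuMG lean replicate 3, or without NMuMG obese replicate 2, 10 members were called. The libraries did not overlap for 24 members higher and 1 lower, against 45.2% of genes in either direction.

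The core carried most of the NMuMG calls. Of the 15 core subunits 10 rose, 6 of 8 in the beta ring (median log2 fold change 0.16) and 4 of 7 in the alpha ring (median 0.10), while 3 of 17 cap subunits rose. The beta subunit Psmb4 changed most in the core, from 179, 172 and 177 CPM with obese to 213, 207 and 222 CPM with lean secretome (log2 0.27, SE 0.04, adjusted p = 1.53e-07), and control lay at 173, 178 and 169 CPM. Lean libraries stood clear of the others for this gene. Psmb3 rose by 0.23, Psma5 by 0.20 and the catalytic subunits Psmb7 and Psmb6 by 0.16 and 0.11. Psmb5 gave 0.15 (SE 0.07, adjusted p = 0.088).

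None of the 6 ATPases was called in NMuMG, where their log2 fold changes lay between -0.00 (Psmc6) and 0.07 (Psmc2). Psmc6 was at 123, 126 and 126 CPM with lean and 125, 122 and 126 CPM with obese secretome. Psmd12 was at 167, 176 and 173 CPM and at 168, 163 and 169 CPM. The lean and obese values of both genes overlapped, and neither differed beyond the spread of the libraries. The 3 called cap subunits were Psmd11 (0.17), Psmd4 (0.13) and Psmd2 (0.12).

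Outside the particle, the cap chaperone Psmd5 changed most of all members in NMuMG. It was at 119, 124 and 127 CPM with lean, 109, 89.0 and 99.8 CPM with obese secretome and 95.9, 88.6 and 95.4 CPM in control (log2 over obese 0.30, SE 0.06, adjusted p = 0.0010). Psmd10 rose by 0.15. Of the activators only Psme4 rose, from 210, 194 and 200 CPM to 224, 230 and 226 CPM (log2 0.16, SE 0.04, adjusted p = 0.00087). Psme1, at 38.4, 35.7 and 36.9 CPM with lean and 36.6, 38.4 and 36.4 CPM with obese secretome, overlapped between media (log2 -0.02, SE 0.05). Psme2, at 34.0, 35.5 and 38.0 CPM against 33.2, 31.8 and 32.6 CPM, did not overlap and was not called (log2 0.12, SE 0.06, adjusted p = 0.078), although it was without lean replicate 1 (adjusted p = 0.043).

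Against control, 26 members rose with lean secretome in NMuMG, where 19.1% of genes rose and 19.1% fell, and the median log2 fold change was 0.13. None was called lower, and 0 were lower at an unadjusted p under 0.05, a threshold at which all genes were not counted. DESeq2 called 25 members higher and 0 lower, among 4790 genes called in either direction. Here 12 of 15 core and 12 of 17 cap subunits rose, Psmd5 (0.40) and Psmb4 (0.31) among the most. Psmc6 was called at 0.10 (adjusted p = 0.036), and the call was lost with no low-count filter, by DESeq2, and without control replicate 2, control replicate 3 or any 1 of the lean replicates (highest adjusted p = 0.20). With obese secretome 1 member was called over control, against 5.01% of genes in either direction: Psmd12, at 0.12 (adjusted p = 0.034), which was lost without any of control replicates 1 and 2 and obese replicates 1 and 3 (highest adjusted p = 0.16). At an unadjusted p under 0.05 there were 14 members higher and 1 lower. The share of all genes at that threshold was not counted, so these 2 counts have no background to be read against. The median log2 fold change was 0.05.

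The cap to core balance moved in opposite directions in the 2 lines. In NMuMG the cap sum was 1.611, 1.602 and 1.574 times the core sum with lean, 1.665, 1.671 and 1.681 times with obese secretome and 1.659, 1.683 and 1.665 times in control. Lean was thus the lowest medium in NMuMG and the highest in E0771, without overlap in either line.

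The difference of the lean against obese effect between the lines was tested directly as an interaction in 1 fit of all 18 libraries. The E0771 effect was the higher for 26 members and the lower for 3, where 18.8% of the 16529 genes tested were higher and 15.5% lower. Of the 17 cap subunits 15 differed, all with the higher effect in E0771, against 6 of the 15 core subunits, all 6 in the alpha ring. In the beta ring no subunit was called with a higher effect in E0771, and Psmb4 was called with a lower one. The median difference was 0.30 for the ATPases, 0.26 for the other cap subunits, 0.26 for the alpha ring and 0.00 for the beta ring, against 0.03 over all genes tested.

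**Figure D5:**
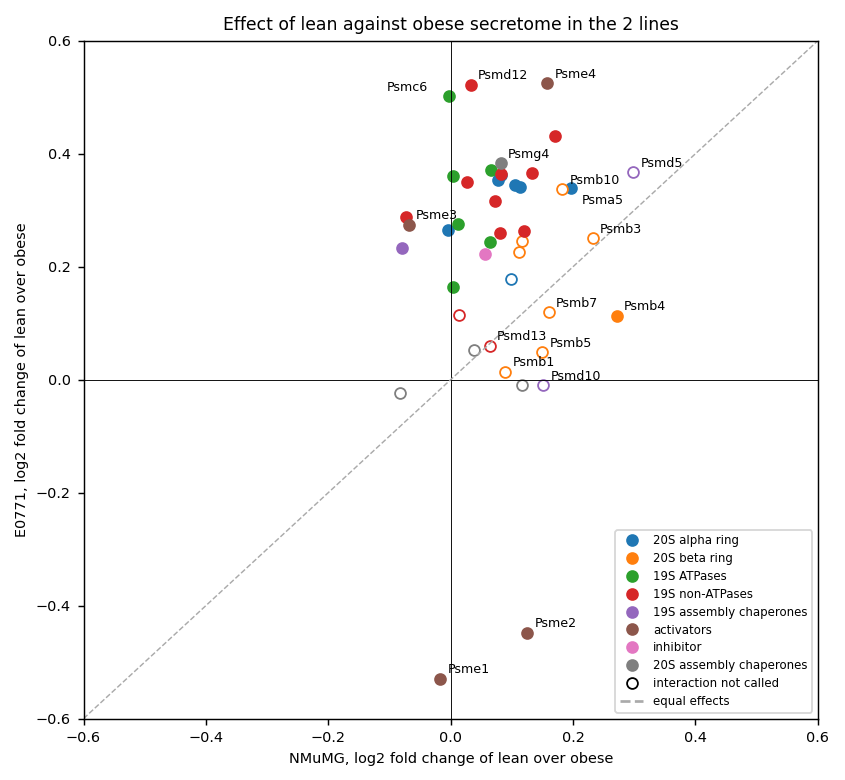
Log2 fold change of lean over obese secretome in NMuMG (x axis) and in E0771 (y axis), 1 point per member, coloured by class, filled where the interaction was called, with a dashed line of equal effects. ATPases lie near 0 in NMuMG and between 0.16 and 0.50 in E0771, and Psme1 and Psme2 lie far below the line.

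Among single members, Psmc6 (difference 0.52, SE 0.06, adjusted p = 6.25e-10) and Psmd12 (0.51, SE 0.06, adjusted p = 1.59e-09) had the largest excess in E0771. Psme2 (-0.56, SE 0.07, adjusted p = 1.19e-07) and Psme1 (-0.50, SE 0.08, adjusted p = 1.23e-06) had the largest deficit. Psme4 (0.38), Psme3 (0.36), Psma4 (0.30) and Psmd11 (0.28) were also called. These 8 were called in each of 17 alternative fits. The differences for Psmf1 (0.18, adjusted p = 0.049) and Psmg4 (0.32, adjusted p = 0.047) were called in 2 of 17 alternatives each, and those for Psma5 (0.16) and Psmb4 (-0.14) in 9 of 17 each. For Psmd5, which rose in both lines, the difference was 0.09 (SE 0.08, adjusted p = 0.49), and Psmd13 had the smallest difference of all, 0.01.

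Against control, the lean effect was higher in E0771 for 28 members and lower for 3, where 19.4% of genes were higher and 15.1% lower. For obese over control 0 of 44 interactions were called by edgeR's quasi-likelihood test, against 1.69% of genes. DESeq2 called 0 members, where it called 398 genes in either direction. At an unadjusted p under 0.05 there were 3 members, and the share of all genes at that threshold was not counted. Without NMuMG control replicate 1, Psmb10 was called in the quasi-likelihood test of this obese over control interaction (adjusted p = 0.036). These comparisons share libraries with the one above.

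In control medium E0771 was higher for 26 and lower for 11 of 44 members, where 37.1% of genes were higher and 43.4% lower. With both directions pooled, members differed between the lines about as often as all genes did. By direction, a larger share of members than of genes was higher in E0771, and a smaller share was lower. The widest difference was in the catalytic subunit Psmb5, at 118, 126 and 126 CPM in E0771 and 36.2, 42.5 and 37.1 CPM in NMuMG, a 2.96-fold difference (log2 1.57, SE 0.06, adjusted p = 3.59e-24). The cap chaperone Psmd10 was the lowest in E0771 relative to NMuMG, at 17.4, 16.4 and 18.4 CPM against 41.5, 41.5 and 41.0 CPM (log2 -1.36, SE 0.06), followed by Psmd13 (-0.93), Psmg4 (-0.73) and Psmb10 (-0.61). The core chaperones Psmg2 and Psmg3 were higher in E0771 by 0.85 and 0.86. Scaling by library totals alone moved the median of all genes in this comparison by 0.11 and turned the alpha ring median from -0.06 to 0.05, so small differences between the lines have no settled sign. The call of Psme1 (0.11, adjusted p = 0.047) was lost in 8 alternatives, including without either of E0771 control replicates 2 and 3 and NMuMG control replicates 1 and 3.

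Other factors of the 26S particle, listed with earlier results of these data known, were read beside the members. Of 11 measured, 8 rose and 2 fell in E0771 with lean over obese secretome, where 25.8% of genes rose and 26.9% fell. In NMuMG 1 rose and 1 fell, below the 17.6% and 17.4% of genes. Adrm1, the ubiquitin receptor of the cap, rose from 153, 144 and 143 CPM to 191, 191 and 213 CPM in E0771 (log2 0.43, adjusted p = 2.16e-08) and overlapped in NMuMG (-0.00). Uchl5, the deubiquitinase that Adrm1 holds, went up in E0771 (0.52) and down in NMuMG (-0.24), a difference of 0.77 (SE 0.07, adjusted p = 1.03e-10). Usp14, the other deubiquitinase of the cap, rose by 0.33, and the cap-bound thioredoxin-like protein Txnl1 by 0.32. Sem1, the smallest cap subunit, fell by 0.29 in E0771, against the direction of the other cap subunits. Pomp, the maturation factor of the core, gave 0.01 in E0771 and rose by 0.11 in NMuMG.

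Of 8 genes of the route that controls proteasome transcription, 1 rose and 4 fell in E0771 with lean over obese secretome, where 25.8% of genes rose and 26.9% fell. In NMuMG 4 rose, where 17.6% of genes did. Nfe2l1 was at 182, 183 and 187 CPM with lean and 208, 220 and 215 CPM with obese secretome in E0771 (log2 -0.23, SE 0.04, adjusted p = 1.51e-05), and at 208, 207 and 219 against 188, 189 and 191 CPM in NMuMG (0.14, SE 0.03, adjusted p = 0.00085). The lean libraries thus lay below the obese ones in E0771 and above them in NMuMG. Ngly1, which processes the Nfe2l1 protein, fell by 0.45 in E0771, and Vcp, the segregase that extracts it from the membrane, rose by 0.24 in E0771 and 0.19 in NMuMG. Nfe2l2 was not called in either line for lean over obese secretome (0.11 and -0.09). Over control it rose in E0771, at 94.8, 91.7 and 111 CPM with lean and 85.8, 92.9 and 83.4 CPM in control, which overlap (log2 0.17, SE 0.06, adjusted p = 0.018). In NMuMG it fell, at 153, 157 and 169 CPM against 177, 175 and 179 CPM, without overlap (log2 -0.15, SE 0.04, adjusted p = 0.0020). Transcript levels of a factor do not measure its protein or activity.

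Of 14 genes for ubiquitin supply and substrate delivery, 5 rose and 4 fell in E0771 with lean over obese secretome, where 25.8% of genes rose and 26.9% fell. In NMuMG 1 rose and 2 fell, where 17.6% and 17.4% of genes did, so the falls in E0771 and both counts in NMuMG were near or below the shares of all genes. Rad23b, a shuttle factor that carries ubiquitinated substrates to the cap, rose by 0.33 in E0771. Ufd1 (0.41), Ubqln1 (0.29), Nploc4 (0.28) and Ubqln4 (0.23) rose in E0771. Of the ubiquitin genes, Rps27a fell there (-0.23), and Ubb was not called.

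Immunoproteasome and antigen processing genes were mostly lower in E0771, as Psme1 and Psme2 were. Of 12 in E0771, 7 fell and 5 were not called, where 26.9% of genes fell, with a median log2 fold change of -0.37. Psmb8, a catalytic immunoproteasome subunit, was at 1.86, 2.18 and 2.19 CPM with lean and 3.73, 4.48 and 2.87 CPM with obese secretome (log2 -0.83, SE 0.18, adjusted p = 0.00049), and Psmb9 was at most 1.00 CPM and not called (-0.59, SE 0.32). Tap1, a peptide transporter subunit, fell by 0.44. In NMuMG 3 of 10 measured genes rose and 2 fell, where 17.6% and 17.4% of genes did, with Tap1 up by 0.67, and the difference between lines for Tap1 was -1.09 (SE 0.15, adjusted p = 2.76e-07). Psmb10, which rose in E0771, was thus opposite to Psmb8 there.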

How the data were processed

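Poly(A) RNA of E0771 and NMuMG was sequenced on an Illumina NovaSeq, as paired reads from a directional kit. The authors deposited a table of raw counts per Ensembl gene ID. Per the submitters' processing notes, cutadapt 1.16, STAR 2.7.9a, featureCounts 1.6.3 and GRCm39 were used; the strand setting and annotation release are not given in the sources used here. Reads carry no molecular identifiers.

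Symbols came from GENCODE M21 (GRCm38), which named 52073 of 56980 IDs (99.7% of counts), and lengths from its principal transcripts. Since the builds differ, only RefSeq promoter coordinates are printed. Each line was fitted with its 3 media in edgeR 4.0.16 (R 4.3.3) with filterByExpr, TMM and a robust quasi-likelihood test, Benjamini-Hochberg adjusted over all genes tested; interactions and the line comparison used 1 fit of 18 libraries in 6 groups. Calls are at an adjusted p under 0.05. Within groups, replicates differed by a chi-square per degree of freedom of 2.22 to 7.71, more than counting error alone. DESeq2 1.42.0, other scalings, filters, fits and left-out libraries were alternatives. Scripts were tested on simulated data for lean against obese secretome. Of 1.25-fold changes in randomly drawn genes, 60% were called in E0771 and 65% in NMuMG, so changes of that size can be missed. Of the calls, 8.11% in E0771 and 6.90% in NMuMG were false.

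The 44 members, the lists and the motifs were chosen with earlier results of these data known. The members followed gene by gene were the activators, the inhibitor, Psmb10, the largest called change of each class and direction in each line, and the largest and smallest interaction (15 members); others were added after their values were seen. One further factor, Paaf1, had no matched ID, and some genes of the lists are not reported here.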

Additional observations from a re-analysis of the deposited data

Results flagged for a closer look

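The effect of lean against obese secretome differed between E0771 and NMuMG, by the interaction term of the fit of both lines, for 12 of the 15 members followed gene by gene. These 15 were chosen in part for large changes or a large difference between the lines, so the count is no measure of the members. Over all genes tested 18.8% were called with the higher effect in E0771 and 15.5% with the lower. The E0771 effect minus the NMuMG effect on the log2 scale was 0.52 for Psmc6, 0.51 for Psmd12, 0.38 for Psme4, 0.36 for Psme3, 0.32 for Psmg4, 0.30 for Psma4, 0.28 for Psmd11, 0.18 for Psmf1 and 0.16 for Psma5. It was -0.56 for Psme2, -0.50 for Psme1 and -0.14 for Psmb4. Psme1 and Psme2 fell in E0771 alone by the calls of each line, and the interaction was the test of that difference. Groups of 3 libraries were too small for the search for single distant libraries.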

How the results depend on the processing

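With a log2 fold change of at least 0.5 required as well, members called went from 37 to 4 (E0771, lean over obese), 39 to 6 (E0771, lean over control), 16 to 0 (NMuMG, lean over obese), 26 to 0 (NMuMG, lean over control), 1 to 0 (NMuMG, obese over control), 29 to 3 and 31 to 1 (interactions of these lean effects) and 37 to 10 (E0771 against NMuMG in control), since the changes were small. For obese over control in E0771, 0 members were called, 1 with no low-count filter and 1 by DESeq2; in NMuMG library totals alone gave 0 in place of 1. Leaving out 1 library gave 35 to 37 and 35 to 39 in the lean comparisons of E0771, 0 to 1 for obese over control there, 10 to 19 and 21 to 24 in the lean comparisons of NMuMG, 0 to 4 for obese over control there, and 25 to 28, 27 to 31 and 0 to 1 for the 3 interactions; a comparison left with 2 libraries in a group rests on the spread of the others. With library totals alone, the medians in control medium between lines became 0.050 (alpha ring), 0.35 (beta ring), 0.23 (ATPases), 0.13 (non-ATPases), 0.59 (cap chaperones), 0.47 (activators), 0.77 (Psmf1) and 0.70 (core chaperones), and in NMuMG the core chaperones became 0.073 for lean over obese and 0.0059 for obese over control. No called value of the 15 members followed gene by gene changed its sign in any alternative run. Signs of the other members and of the listed genes were not compared across the runs.

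Across genes, deviations from the group means correlated between media for replicates with the same number at -0.15 to 0.14 in E0771 and from -0.063 to 0.017 in NMuMG over 9 pairs each, so the numbers were not read as pairs. With the replicate block the counts were 37 and 39 for the lean comparisons in E0771, 16 and 24 in NMuMG, 27 and 30 for their interactions and 36 between lines in control.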
